A study of Mus musculus with 7 samples.

Results

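*Hjurp* and 4 partner genes of CENP-A deposition, *Cenpa*, *Mis18a*, *Oip5* and *Cenpc1*, were examined in the spinal cord of ALS model mice with and without *Neat1*. These are 5 of the 55487 genes counted. *Hjurp* was chosen by its difference between the genotypes in these libraries, so although it is part of the fit across all genes, its values are given as a description and without a p. The partners were named for their function, with results of these data already known. The question was whether the partners and other genes of cell proliferation followed *Hjurp* or whether it stood alone.

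RNA was taken from the cervical spinal cords of 8-week-old mice, 4 *Neat1*-KO; hSOD1G93A mice (replicates 1 to 4) and 3 *Neat1*-WT; hSOD1G93A mice (replicates 2 to 4), and each mouse gave 1 poly(A) library. *Neat1* encodes a long non-coding RNA that builds nuclear bodies called paraspeckles. Mice of both groups carried the human *SOD1* transgene with a mutation of familial ALS, and mice without the transgene were not analysed here, so every difference below is one within the transgenic background. The labels do not give the sex of the mice, and the RNA came from whole tissue, in which fewer cells of a type and less RNA per cell cannot be told apart.

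CENP-A is the variant of histone H3 that marks the centromere, the site on each chromosome where the kinetochore is built at cell division. HJURP is the chaperone that binds new CENP-A together with histone H4 and delivers it to the centromere after mitosis. The Mis18 complex, formed by the products of *Mis18a* and *Oip5* (also named Mis18 beta), opens the centromere for this delivery, and CENP-C, the product of *Cenpc1*, binds CENP-A nucleosomes and links them to the kinetochore and to the Mis18 complex.

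The promoters of the members were searched first, because genes expressed in the G2 and M phases of the cell cycle often hold a cell cycle genes homology region (CHR), a short element bound by the DREAM and MuvB complexes. The windows were the RefSeq promoters on GRCm38.p6, from 250 bases before to 50 bases after each gene start, and the letters TTTGAA or TTCGAA were searched on both strands. Of the 5 members, 4 held them, all but *Cenpc1*, and 5254 of all 27025 promoters (19.4%) did. The stretches around the letters are shown so that the position and form of these letters in *Hjurp* and its partners can be compared, as the flanking bases differ. Each stretch is written along the strand of its gene, with the CHR letters in capitals, and in *Oip5* the capitals are the reverse complement of TTTGAA.
Hjurp, chr1:88277530-88277590, minus strand: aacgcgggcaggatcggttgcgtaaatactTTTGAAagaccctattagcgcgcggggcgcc
Cenpa, chr5:30666872-30666935, plus strand: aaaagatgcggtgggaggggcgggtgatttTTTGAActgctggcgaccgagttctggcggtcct
Oip5, chr2:119618456-119618502, minus strand: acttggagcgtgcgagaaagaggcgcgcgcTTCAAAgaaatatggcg
Mis18a, chr16:90727577-90727621, minus strand: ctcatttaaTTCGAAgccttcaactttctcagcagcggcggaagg

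The letters began 19 bases after the RefSeq start of *Hjurp*, 16 bases after that of *Cenpa* and 33 bases after that of *Oip5*. In *Mis18a* they lay at -241, near the far edge of the window. The CCAAT box, the letters CCAAT on either strand, was present in *Hjurp*, *Cenpa*, *Oip5* and *Cenpc1* and in 37.9% of all promoters. Among the lists of related genes compared below, the CHR letters were found in 17 of 22 promoters of mitosis genes and in 11 of 18 of kinetochore genes, but in 3 of 19 of S phase genes. A match of these letters is a description of the window and does not show that a factor binds there.

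**Figure D1:**
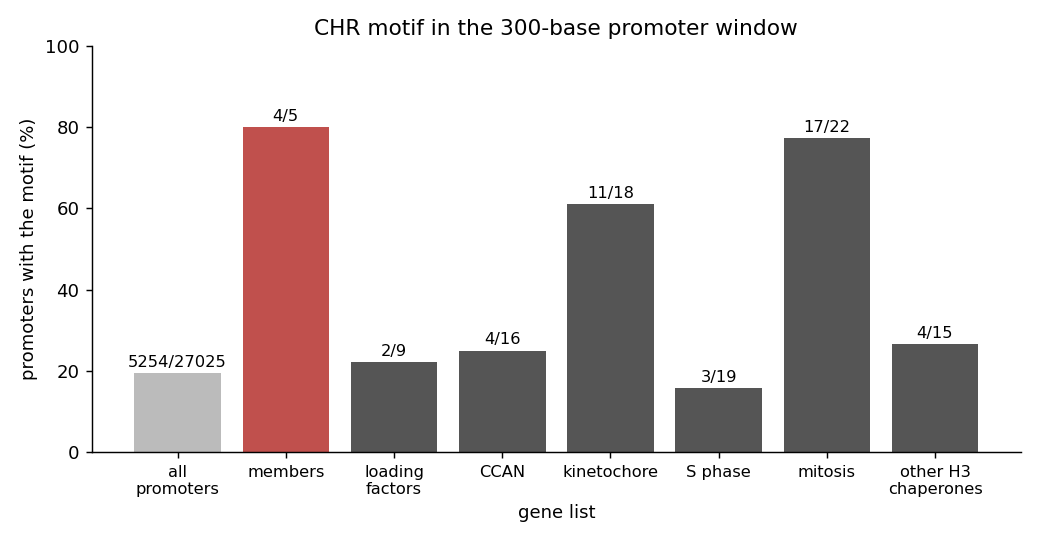
Share of promoters with the CHR letters (vertical axis, percent) in all promoters and in each gene list (horizontal axis), with the number of promoters above each bar. The members and the mitosis genes stand at 80.0% and 77.3%, against 19.4% of all promoters.

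The total count per library lay between 19661878 and 26031517, and the factors of the TMM scaling between 0.991 and 1.008. Levels are given as CPM, the count divided by the scaled library size, and values of single libraries are listed in the order of the replicate numbers. *Neat1* (chromosome 19, 5824708 to 5845478) had between 4.04 and 5.52 CPM in the *Neat1*-KO libraries and between 80.5 and 118.4 CPM in the *Neat1*-WT libraries, as the labels say. Markers of neurons, astrocytes and oligodendrocytes were all detected. Genes were tested by edgeR's quasi-likelihood test and called at a Benjamini-Hochberg adjusted p under 0.1 with an absolute log2 fold change over 0.58. Of 18449 genes tested, 6 were called, a number that was 31 without *Neat1*-KO replicate 1 and, in the *Neat1*-WT group, 3 without replicate 3 and 11 without replicate 4. The median log2 fold change of all genes tested was 0.0062.

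*Hjurp* (ENSMUSG00000044783) is a protein-coding gene of chromosome 1 (88262471 to 88277633, minus strand). Its level was 121.2, 124.6, 116.6 and 121.8 CPM in the *Neat1*-KO libraries (replicates 1 to 4), but 66.3, 63.5 and 68.8 CPM in the *Neat1*-WT ones (replicates 2 to 4). All 4 *Neat1*-KO libraries thus lay close together and above every *Neat1*-WT library. This gave a mean of 121.1 ± 3.33 CPM (SD, n = 4) for *Neat1*-KO and of 66.2 ± 2.62 CPM (SD, n = 3) for *Neat1*-WT mice, a ratio of 1.83 in the fit. On the log2 scale the difference was 0.87 with a standard error of 0.07, and its 95% interval ran from 0.72 to 1.02. Under every alternative setting and with any library left out, this estimate stayed between 0.84 and 0.90. The counts behind it were high, between 2360 and 3193 in *Neat1*-KO and between 1349 and 1464 in *Neat1*-WT libraries. No other transcript in the annotation matched *Hjurp* at 90% identity over 50% of its length.

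**Figure D2:**
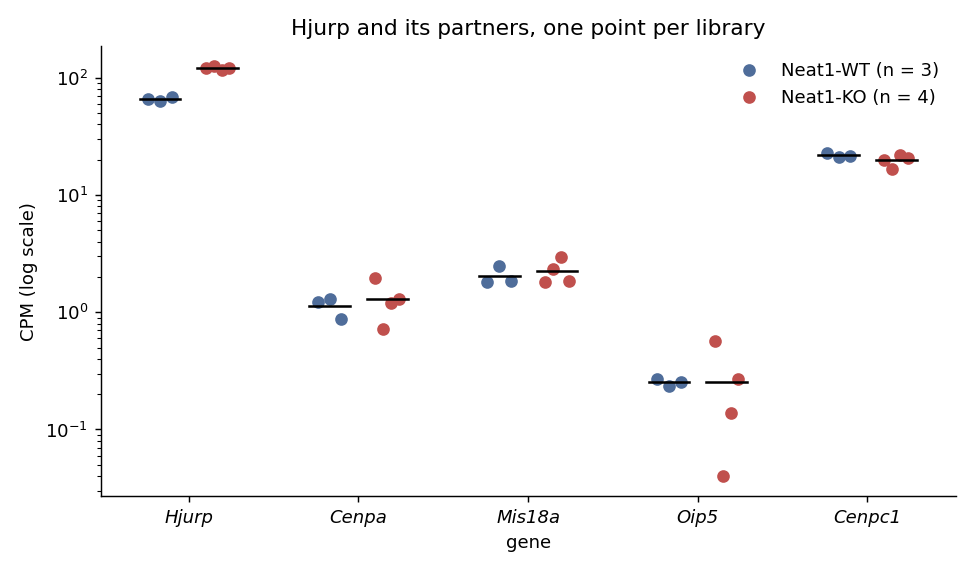
CPM on a log scale (vertical axis) of the 5 members (horizontal axis), with 1 point per library and a bar at the mean of each genotype (3 *Neat1*-WT, blue, and 4 *Neat1*-KO, red). The *Hjurp* libraries part by genotype, between 63.5 and 68.8 against 116.6 and 124.6 CPM, and those of the other 4 genes overlap.

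*Cenpa*, the gene of the histone that HJURP carries, lies on chromosome 5 (30666777 to 30674830). Its level was 1.95, 0.73, 1.21 and 1.297 CPM in the *Neat1*-KO libraries and 1.22, 1.31 and 0.87 CPM in the *Neat1*-WT ones. The highest and the lowest library were both *Neat1*-KO, so the genotypes overlapped over the whole *Neat1*-WT range. The log2 fold change was 0.18 with a standard error of 0.35 and a 95% interval from -0.59 to 0.94 (adjusted p = 0.994, edgeR). *Cenpa* rested on 17 to 38 counts per library, and at this depth a difference as large as that of *Hjurp* still lay inside its interval. Without *Neat1*-KO replicate 1, the highest library, the estimate was -0.08.

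*Mis18a* (chromosome 16, 90719312 to 90727404) encodes the alpha subunit of the Mis18 complex. Its level was 1.80, 2.34, 2.97 and 1.83 CPM in the *Neat1*-KO libraries, against 1.81, 2.47 and 1.84 CPM in the *Neat1*-WT libraries. In each genotype some libraries lay near 1.8 CPM and others above 2.3 CPM. The log2 fold change was 0.13 with a standard error of 0.25 and a 95% interval from -0.42 to 0.68 (adjusted p = 0.993, edgeR), whose upper end lay under the 0.87 of *Hjurp*. Without *Neat1*-KO replicate 3 the estimate was -0.035.

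*Oip5* (chromosome 2, 119609512 to 119618469) encodes the beta subunit of the Mis18 complex and was close to undetected. Its counts were 11, 1, 3 and 7 in *Neat1*-KO replicates 1 to 4 and 6, 5 and 5 in *Neat1*-WT replicates 2 to 4, too few for the edgeR test. Both genotypes had a mean of 0.253 CPM, with an SD of 0.228 (n = 4) in *Neat1*-KO and 0.0191 (n = 3) in *Neat1*-WT mice and with the *Neat1*-WT libraries inside the *Neat1*-KO range. A two-sided exact permutation test of the genotype labels gave p = 1, where the smallest p that 4 libraries against 3 allow is 0.0286. *Oip5* shares 172 bases with *Nusap1* on the other strand, a gene with 69 to 111 counts per library, and the sources used here do not say whether counting used the strand.

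*Cenpc1* (chromosome 5, 86012024 to 86065583) was the partner with the highest level. It had 19.98, 16.5, 22.0 and 20.7 CPM in the *Neat1*-KO libraries and 22.6, 21.1 and 21.5 CPM in the *Neat1*-WT ones. The *Neat1*-KO libraries were spread wider and reached lower, with replicate 3 inside the *Neat1*-WT range. The log2 fold change was -0.14 with a standard error of 0.11 (adjusted p = 0.992, edgeR), and its 95% interval from -0.37 to 0.10 did not reach the difference of *Hjurp*. The estimate was -0.06 without *Neat1*-KO replicate 2, the lowest library, and -0.03 with *Xist* as a covariate. *Xist* is an RNA of the inactive X chromosome and had at most 4 counts in any library. Those few counts were mostly in *Neat1*-KO libraries, so this covariate partly follows the genotype. The processed pseudogene *Gm13477* on chromosome 2 matches *Cenpc1* at 93.2% identity over 84.4% of its transcript, but had at most 0.14 CPM in any library.

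In the fit across all genes, where 0.0325% were called, 1 of the 4 members with enough counts was called, *Hjurp*, and since it was chosen by this contrast nothing is read from that count. Of the 3 partners tested, 0 were called by edgeR and 0 by limma-voom, and 0 by the DESeq2 Wald test, which gave an adjusted p for *Cenpc1* but not for *Cenpa* and *Mis18a*. At an unadjusted p under 0.05 there were 0 partners as well, beside 4.64% of all genes. The libraries of the genotypes overlapped for all 4 partners, while 5.47% of all genes tested had libraries that did not overlap. The median log2 fold change of the 3 partners was 0.13, and -0.08 without *Neat1*-KO replicate 1. The summed level of the 4 partners was between 19.6 and 26.3 CPM in *Neat1*-KO and between 24.4 and 25.9 CPM in *Neat1*-WT libraries.

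Per length, the level of *Hjurp* was above those of its 4 partners. In RPKM, here the CPM divided by the length of all annotated exons in kb, its mean over the 7 libraries was 11.7, above 75.5% of the 18429 genes with a length. Other genes of the lists below stood higher, such as *Npm1* at 47.2, *Cenpb* at 45.7 and *Rbbp4* at 14.5 RPKM. The mean was 3.66 RPKM for *Cenpc1*, 0.751 for *Mis18a*, 0.209 for *Cenpa* and 0.142 for *Oip5*. The ranges of *Hjurp*, *Cenpc1* and *Mis18a* did not meet each other, and all *Cenpa* libraries lay below those of *Mis18a*, whereas *Cenpa* (0.124 to 0.333 RPKM) and *Oip5* (0.0227 to 0.318 RPKM) overlapped. Within single libraries, the RPKM of *Hjurp* was 34.2 to 55.8 times that of *Cenpa* in *Neat1*-WT mice and 43.7 to 120.8 times in *Neat1*-KO mice. The ratio of *Hjurp* to *Cenpc1* was 1.98 to 2.17 in *Neat1*-WT and 3.59 to 5.11 in *Neat1*-KO mice. As *Hjurp* was chosen by its difference between the genotypes, a difference of these ratios between them is not a separate result. The size of these ratios depends on which exons count as length. With the longest coding transcript in place of all exons, a choice made after seeing the data, the mean of *Hjurp* over that of *Cenpa* was 23.9 instead of 56.0.

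Other factors that load or keep CENP-A were compared next. Of the 12 on the list, 12 were tested, 7 had a higher and 5 a lower estimate in *Neat1*-KO mice, and the median log2 fold change was 0.05. By edgeR 0 were called, and 1 had an unadjusted p under 0.05. That gene was *Plk1*, the kinase that licenses the Mis18 complex for loading. It had 1.08, 1.53, 1.299 and 0.84 CPM in the *Neat1*-KO libraries and 0.59, 0.70 and 0.71 CPM in the *Neat1*-WT ones. Its genotypes did not overlap, as for 2 of the 12 genes listed and 5.47% of all genes tested. The lowest *Neat1*-KO and the highest *Neat1*-WT library of *Plk1* were close. The log2 fold change was 0.83 with a standard error of 0.33 and a 95% interval from 0.11 to 1.56 (adjusted p = 0.992, edgeR). With *Xist*, which partly follows the genotype, as a covariate the estimate was 0.48. In this list and in the CCAN, kinetochore, S phase, mitosis, H3 chaperone and neighbour lists below, limma-voom and DESeq2 also called 0 genes, though DESeq2 gave no adjusted p for some genes of low count, *Plk1* and *Ndc80* among them. The abundant histone chaperones *Rbbp4* (129.5 ± 5.14 CPM, n = 4, in *Neat1*-KO and 123.8 ± 4.24 CPM, n = 3, in *Neat1*-WT mice) and *Npm1* (127.0 ± 9.98 CPM, n = 4, and 124.4 ± 12.9 CPM, n = 3; all SD) had log2 fold changes of 0.06 and 0.03, below their standard errors of 0.07 and 0.09. For 11 of the 12 genes, all but *Plk1*, the 95% interval ended below the estimate of *Hjurp*, as it did for 16518 of all 18449 genes tested, so this count does not set the list apart.

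**Figure D3:**
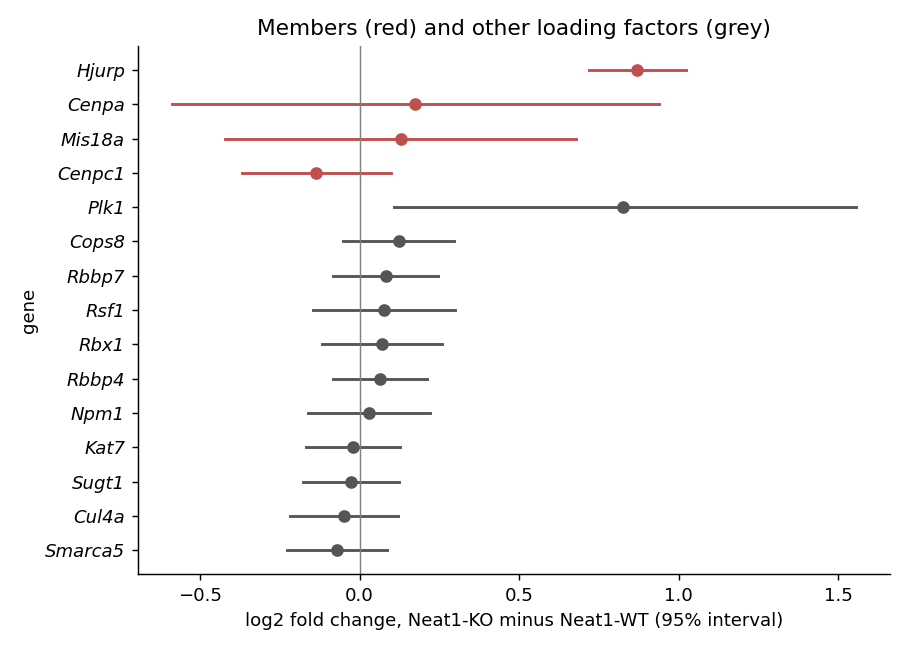
Log2 fold change of *Neat1*-KO over *Neat1*-WT (horizontal axis, points) with 95% intervals (lines) for the tested members (red) and 11 of the 12 other loading factors (grey). *Hjurp*, chosen by this contrast, stands at 0.87 with an interval from 0.72 to 1.02, given as a description only. Among the other genes shown, every interval but that of *Plk1* includes 0.

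The constitutive centromere-associated network (CCAN) is the layer of proteins that sits on CENP-A nucleosomes throughout the cell cycle. Its list, with *Cenpb*, held 16 genes, all tested, of which 7 had a higher and 9 a lower estimate in *Neat1*-KO mice. The median log2 fold change was -0.02, 0 were called by edgeR, and 0 had an unadjusted p under 0.05. *Cenpb*, which binds a DNA motif of centromere repeats, had 225.4 ± 23.2 CPM (SD, n = 4) and 220.4 ± 23.9 CPM (SD, n = 3). *Cenpo*, a CCAN subunit, was at 27.6 to 31.8 CPM in *Neat1*-KO and at 31.9 to 33.7 CPM in *Neat1*-WT libraries. Its libraries did not overlap, the only such case among the 16 genes, beside 5.47% of all genes tested. Its log2 fold change was only -0.12 with a standard error of 0.09 (adjusted p = 0.992, edgeR).

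The outer kinetochore couples the centromere to microtubules and carries the spindle checkpoint. Of 21 such genes 19 were tested, with 9 estimates higher and 10 lower in *Neat1*-KO mice and a median log2 fold change of -0.02. Again 0 were called by edgeR, and 1 had an unadjusted p under 0.05, *Ndc80*, a subunit of the complex that grips the microtubule. It had 0.72, 0.65, 0.23 and 0.50 CPM in the *Neat1*-KO libraries and 0.32, 0.19 and 0.15 CPM in the *Neat1*-WT ones. *Neat1*-KO replicate 3 lay among the *Neat1*-WT libraries. The log2 fold change was 1.22 with a standard error of 0.54 (adjusted p = 0.992, edgeR), from 3 to 16 counts per library. *Ndc80* had enough counts for the test only through *Neat1*-KO replicates 1, 2 and 4, where it was high. Nothing is therefore read from its p or its estimate. *Zwint*, a kinetochore protein, was the most abundant gene of the list at 930.9 ± 67.2 CPM (SD, n = 4) and 850.1 ± 69.8 CPM (SD, n = 3), and its log2 fold change was 0.13. *Bub3*, a checkpoint protein, had a log2 fold change of -0.02.

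Genes of proliferation at large gave the same counts of 0 calls. Of 26 S phase genes, which copy the DNA, 25 were tested, 16 had a higher and 9 a lower estimate, and the median log2 fold change was 0.04. By edgeR 0 of them were called and 0 had an unadjusted p under 0.05. *Pcna*, the sliding clamp of DNA polymerases, had 36.8 ± 6.33 CPM (SD, n = 4) and 38.3 ± 2.38 CPM (SD, n = 3), and *Gins2*, a part of the replicative helicase, had 30.7 ± 3.37 CPM (SD, n = 4) and 28.9 ± 1.21 CPM (SD, n = 3). Of 30 mitosis genes 26 were tested, with 14 estimates higher and 12 lower and a median of 0.05. Of these 0 were called by edgeR and 1 had an unadjusted p under 0.05, *Anln*, a scaffold of cytokinesis. Its value was lower, with a log2 fold change of -0.25 and a standard error of 0.10 (adjusted p = 0.992, edgeR), and the genotypes overlapped at 151.9 to 198.4 CPM against 192.8 to 226.1 CPM.

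*Mki67*, which encodes the Ki-67 protein of dividing cells, had 1.59, 1.895, 2.97 and 2.63 CPM in the *Neat1*-KO libraries and 1.77, 2.38 and 3.21 CPM in the *Neat1*-WT ones. *Top2a*, the topoisomerase that untangles chromosomes for mitosis, had 2.004, 2.98, 2.88 and 1.95 CPM in the *Neat1*-KO libraries and 2.13, 1.68 and 2.96 CPM in the *Neat1*-WT ones. For both, libraries of either genotype spread over nearly the same range. The log2 fold changes were -0.10 with a standard error of 0.28 for *Mki67* and 0.13 with a standard error of 0.26 for *Top2a* (adjusted p = 0.996 and 0.994, edgeR). *Pttg1*, the securin that blocks the separation of sister chromatids until anaphase, had 22.8 ± 4.11 CPM (SD, n = 4) and 18.9 ± 4.58 CPM (SD, n = 3). Its log2 fold change was 0.28 with a standard error of 0.17, and 0.09 without *Neat1*-WT replicate 3. The 95% intervals ended below the estimate of *Hjurp* for 21 of 26 mitosis, 20 of 25 S phase, 16 of 19 kinetochore and 14 of 16 CCAN genes, shares no higher than that over all genes (16518 of 18449).

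Chaperones of other H3 histones, with the H3.3 genes, were included to see whether histone handling at large moved with *Hjurp*. All 16 were tested, 13 had a higher and 3 a lower estimate, the median log2 fold change was 0.04, 0 were called by edgeR, and 0 had an unadjusted p under 0.05. *H3f3a* and *H3f3b*, which encode H3.3, had log2 fold changes of -0.06 and 0.06, with standard errors of 0.08 and 0.07. When 1 library at a time was left out, the list medians ran from -0.01 to 0.08 for the loading factors, from -0.06 to 0.03 for the CCAN, from -0.03 to -0.0035 for the kinetochore, from 0.01 to 0.09 for S phase, from 0.01 to 0.09 for mitosis and from 0.03 to 0.07 for these chaperones.

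**Figure D4:**
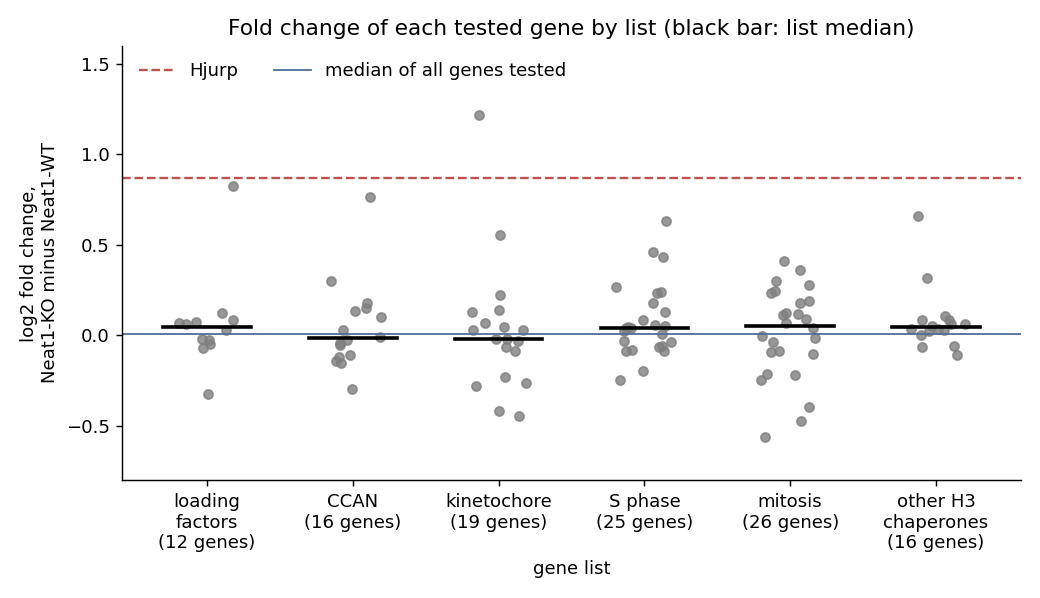
Log2 fold change of *Neat1*-KO over *Neat1*-WT (vertical axis) of each tested gene in 6 lists (horizontal axis), with list medians as black bars, the median of all genes tested as a blue line and *Hjurp* as a dashed red line. The list medians lie between -0.02 and 0.05, and only *Ndc80*, at 1.22, lies above *Hjurp*. *Ndc80* had enough counts for the test only through *Neat1*-KO libraries, where it was high.

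Genes with and without the CHR letters in the promoter had similar medians. Only tested genes with a RefSeq promoter window were compared, which are fewer than the 18449 tested. Of these, 1726 had the letters, and their median log2 fold change was 0.0062, *Hjurp* included. The 10793 tested genes with a window but without the letters had a median of 0.0078. Among the lists and the partners, limited in the same way, the 40 tested genes with the letters had a median of 0.02. Of their estimates, 21 were higher and 19 lower. The 58 without the letters had a median of 0.03.

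The genes around *Hjurp* were also examined. *Hjurp* lies on another chromosome than *Neat1*, and 44 further genes lie within 500 kb of it. Of these, 8 were tested, 29 had no more than 3 counts in any library, and 23 of these were at 0 in all libraries. By edgeR 0 of the 8 were called and 0 had an unadjusted p under 0.05. Their median log2 fold change was 0.02, and 0.10 or 0.11 without *Neat1*-WT replicate 3 or 4. The nearest was *Trpm8*, the cold-sensing ion channel, which is read from the opposite strand and starts 28 bases from the start of *Hjurp*. It had 0.87, 0.56, 0.60 and 0.38 CPM in the *Neat1*-KO libraries and 0.45, 0.51 and 0.25 CPM in the *Neat1*-WT ones. These libraries overlapped, and the log2 fold change of 0.53 had a standard error of 0.45 (adjusted p = 0.992, edgeR). It was 0.32 without *Neat1*-KO replicate 1 and 0.30 without *Neat1*-WT replicate 4. With *Xist*, which partly follows the genotype, as a covariate it was 0.01. On the other side, *Mroh2a* ends 182 bases from the end of *Hjurp*, and its log2 fold change was -0.05 with a standard error of 0.22. The heat shock protein 40 gene *Dnajb3* and the predicted gene *Gm19582* had log2 fold changes of -0.23 and 0.21, with standard errors of 0.30 and 0.24. The more abundant neighbours *Arl4c* (a small GTPase), *Dgkd* (a diacylglycerol kinase), *Atg16l1* (an autophagy protein) and *Usp40* (a ubiquitin peptidase) had log2 fold changes of 0.02, -0.06, 0.03 and 0.15.

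**Figure D5:**
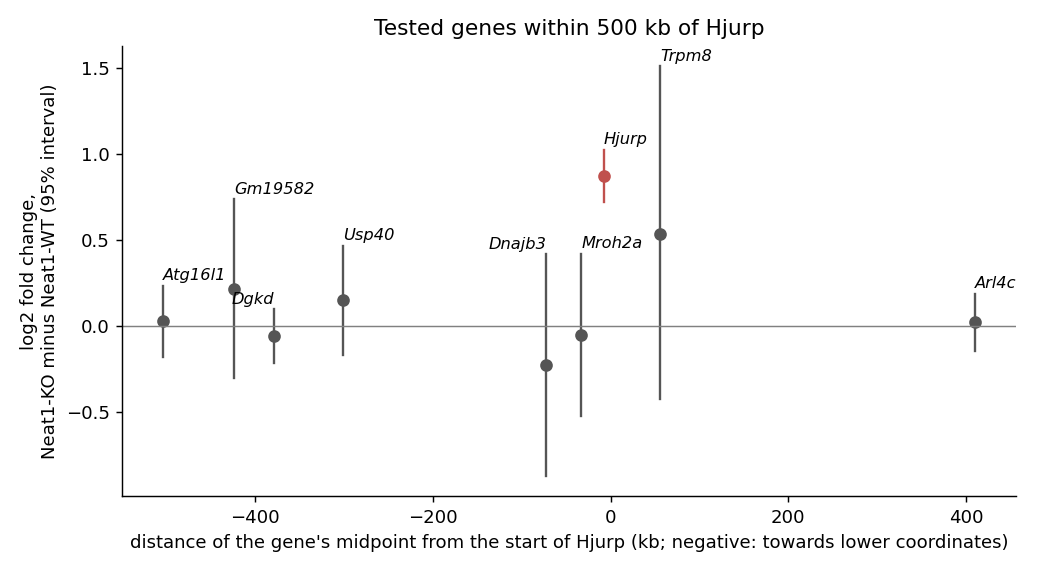
Log2 fold change of *Neat1*-KO over *Neat1*-WT (vertical axis, points) with 95% intervals (lines) of *Hjurp* (red) and the 8 tested genes within 500 kb (grey), placed by distance of the gene's midpoint from the start of *Hjurp* (horizontal axis, kb). All 8 intervals of the neighbours include 0, and *Trpm8* has the widest, which also includes the estimate of *Hjurp*.

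Over the 7 libraries, the genes whose log2 CPM was most like that of *Hjurp* by Pearson's r were *Yipf2* (a Golgi membrane protein, r = 0.98), *Acox3* (a peroxisomal acyl-CoA oxidase, 0.971), *Ap3b2* (a neuronal adaptor subunit, 0.969), *Rab3gap1* (a regulator of the Rab3 GTPases, 0.964) and *Irak1* (an interleukin-1 receptor kinase, 0.963). The most opposite were *Khdrbs2* (an RNA-binding protein, r = -0.995), a protein-coding gene known only by a clone name (-0.991) and *Neat1* itself (-0.987). The 7 points share the split into genotypes, so r is given as a description, with no p. The steps of the likest genes were smaller than that of *Hjurp*, from 34.7 ± 0.291 CPM (SD, n = 3) in *Neat1*-WT to 37.1 ± 0.198 CPM (SD, n = 4) in *Neat1*-KO for *Yipf2*, and a log2 difference of 0.29 for *Acox3*. None of the 5 likest genes was in a list above. Of the listed genes *Plk1* came first, with r = 0.837 at rank 211, and *Ndc80* second, with 0.75 at rank 535. *Ndc80* was among the genes tested only through its high *Neat1*-KO libraries. At the opposite end a kinetochore gene had r = -0.862 at rank 18337, larger in size than that of *Plk1*, and *Anln* had -0.672.

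Marker lists of cell types were read beside these values, since dividing cells of the adult cord are mostly glial. All 5 markers of oligodendrocyte progenitors were detected, with a summed level of 550.9 to 681.7 CPM in *Neat1*-KO and 625.7 to 700.8 CPM in *Neat1*-WT libraries, and 4 of 5 had a lower estimate. All 6 microglia markers had a higher estimate, with sums of 219.1 to 304.9 and 212.7 to 298.8 CPM. All 5 oligodendrocyte markers had a lower estimate, with a median log2 fold change of -0.16, and all 6 markers of meningeal fibroblasts a higher one, with a median of 0.20. For each of these lists the sums overlapped between the genotypes. In these lists 0 markers were called by edgeR. An unadjusted p under 0.05 was found for 1 progenitor, 1 oligodendrocyte, 1 meningeal and 0 microglia markers, beside 4.64% of all genes tested. Over all genes tested, 9561 of 18449 had a higher estimate. In the other lists, 4 of 6 neuron, 3 of 5 astrocyte, 4 of 5 endothelium and 2 of 6 ependymal markers had a lower estimate. Of these, 1 neuron and 1 endothelium marker had an unadjusted p under 0.05, and 0 were called by edgeR. The part of these cell types in the difference of *Hjurp* was not tested.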

How the data were processed

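Reads were trimmed, aligned with HISAT2 and counted per gene with featureCounts from uniquely mapped reads. The authors deposited these raw counts, without normalization, and the strand setting and annotation release are not given in the sources used here. The submitters' processing notes name Trimmomatic 0.38, HISAT2 2.1.0, featureCounts 1.6.3 and the build mm10. GENCODE M21 (GRCm38) gave symbols and positions, and RefSeq (GRCm38.p6) the promoters.

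From the counts, genes were filtered by filterByExpr, scaled by TMM and tested between 4 and 3 libraries by the quasi-likelihood test of edgeR 4.0.16 (R 4.3.3) with Benjamini-Hochberg adjustment over all genes tested. DESeq2 1.42.0 and limma 3.58.1 (voom) served as alternatives, with median-of-ratios factors, no filter, a block for replicate number, a covariate for *Xist*, 1 library left out at a time, and an adjusted p under 0.05. Copies were searched with BLAST 2.17.0. The fits were tested on simulated data. Replicates differed by more than sampling noise (chi-square per gene 8.06 to 17.7).

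The members and gene lists were chosen with earlier results of these data known. Named genes were the members, *Neat1*, *Mki67*, *Top2a*, the 2 genes of each list with the highest mean CPM and those with an unadjusted p under 0.05, all tested genes within 500 kb of *Hjurp*, and the 5 most and 3 least like *Hjurp* by Pearson's r of log2 CPM (prior count 0.5). *Nusap1*, *Gm13477* and the Y-linked genes were named outside this rule, after their values were seen. A gene counted in its list is not reported here by name.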

Additional observations from a re-analysis of the deposited data

Results flagged for a closer look

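Among the named genes, checked in the 4 *Neat1*-KO libraries, 1 had a library far from the others. It was *Dnajb3*, a neighbour of *Hjurp*, at 2.26, 1.33, 1.21 and 1.18 CPM in *Neat1*-KO replicates 1 to 4, where the gap between replicate 1 and its nearest neighbour took 0.863 of the whole range, above Dixon's 95% critical value. Chance flags about 1 in 20 such groups, and 37 results were checked. In *Neat1*-WT replicates 2 to 4 the gene had 1.63, 1.49 and 2.09 CPM.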

How the results depend on the processing

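The estimates for *Hjurp*, *Cenpc1* and *Plk1* kept their direction under every alternative that gave a value. That of *Ndc80* did so under the 9 that gave one. It had too few counts for the test without *Neat1*-KO replicate 1, 2 or 4 and with the replicate block, so its stability was not tested there. Among the partners, the loading, CCAN, kinetochore, S phase, mitosis and H3 chaperone lists and the neighbours of *Hjurp*, 0 genes were called under the alternatives run. Call counts of the cell type markers were not run under them. Over all genes, 6 were called, against 124 with no low-count filter, 27 by DESeq2 and 38 with the replicate number as a block, and between 3 and 31 with 1 library left out. The block could not be read as a pairing: same-numbered libraries deviated with r = -0.19, -0.113 and -0.0164. Estimates near 0 changed sign. With the replicate block, they were -0.093 for *Cenpa*, -0.0177 for *Npm1*, -0.017 for *Arl4c*, 0.0152 for *Mroh2a* and 0.0363 for *Mki67*. With *Xist* as a covariate, they were -0.0186 for *Mis18a*, -0.0208 for *Npm1*, -0.0863 for *Cenpb*, -0.0533 for *Atg16l1*, -0.0616 for *Arl4c*, 0.0252 for *Mroh2a* and 0.1744 for *Mki67*. *Xist* had at most 4 counts in any library, so it does not part the libraries by sex. With 1 library left out, they ran from -0.0812 to 0.3764 for *Cenpa*, -0.035 to 0.2912 for *Mis18a*, -0.0566 to 0.0741 for *Npm1*, -0.0387 to 0.1238 for *Cenpb*, -0.0739 to 0.0123 for *Bub3*, -0.16 to 0.0099 for *Pcna*, -0.0713 to 0.1014 for *Atg16l1*, -0.0271 to 0.0606 for *Arl4c*, -0.1583 to 0.1584 for *Mroh2a*, -0.2927 to 0.1348 for *Mki67* and -0.0481 to 0.3617 for *Top2a*. The cause of these shifts was not tested. In all, 432 of 464 values of named genes kept their direction and 32 changed it, none of them of a called gene. Counts per library limit *Cenpa*, *Mis18a*, *Oip5*, *Plk1*, *Ndc80* and *Trpm8*.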

Other observations

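Y-linked genes were present in all 7 libraries and *Xist* had at most 4 counts in any, so every library read as male by these genes. This differs from the paper, which states that its experiments used both sexes in balanced groups. It does not give the sex of the sequenced mice. *Ddx3y* stood at 82.8, 75.8 and 86.6 CPM in replicates 1 to 3 of *Neat1*-KO, 39.9 CPM in *Neat1*-KO replicate 4 and 84.8, 81.5 and 94.4 CPM in the *Neat1*-WT libraries. *Uty*, *Kdm5d* and *Eif2s3y* were likewise lowest in *Neat1*-KO replicate 4, at 6.45, 9.69 and 12.2 CPM. *Hjurp* had 121.8 CPM in that library, inside the range of the other *Neat1*-KO libraries.

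Of the 6 markers of sensory ganglia, 4 were tested and in *Neat1*-KO mice all 4 had a lower estimate. Their median log2 fold change was -0.27, with sums of 91.2 to 108.8 CPM against 102.0 to 123.0 CPM. Of the 5 blood markers 4 had a lower estimate, with sums of 5.80 to 12.5 CPM against 8.31 to 13.6 CPM. None was called by edgeR, and 1 ganglion marker had an unadjusted p under 0.05, beside 4.64% of all genes tested. Over all genes tested, 8888 of 18449 had a lower estimate.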
